A study of Mus musculus with 8 samples.

Results

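Claudins and their partners in the tight junction were measured as mRNA in whole lung tumors of mice. The 10 members were chosen by name and not by a threshold on their values: the claudin genes Cldn1, Cldn2, Cldn3, Cldn4, Cldn5, Cldn7 and Cldn18, the occludin gene Ocln, the zonula occludens 1 gene Tjp1 and the junctional adhesion molecule A gene F11r. Earlier results of these data were known when they were chosen. They are 10 of the 48709 genes in the count table, and 9 of them are treated as epithelial members and 1, Cldn5, as the endothelial member. All 8 tumors arose in mice on a mixed B6J/129S4vJae background, and each was started through the airway with a lentiviral vector, LentiCRISPRv2Cre, that delivers Cre recombinase, Cas9 and 1 guide RNA. In the 4 K-Ctrl tumors the guide was directed against GFP, and in the 4 K-Setd2KO tumors against Setd2, whose product trimethylates histone H3 at lysine-36. The study matched the tumors by histological stage. Its paper describes cell sorting before RNA extraction for another tumor model only. These samples were therefore taken here as whole tumors, with host blood vessels, stroma and immune cells as part of each. The labels' extraction text speaks of cell lines instead, a difference that was not resolved. Tumors in the study's mouse models were begun by 20 weeks of age. The number of mice, the time from infection to collection and the promoter driving Cre were not given in the sources used here, and nothing says which tumors came from separate animals, so p-values measure only the spread between these samples.

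Tight junctions seal the space between neighbouring cells at the apical end of their lateral membranes. Claudins are membrane proteins with 4 passes through the membrane that form the strands of the junction, and the mix of claudins in a cell sets which ions and solutes can pass: most members tighten the barrier, whereas Cldn2 forms a channel for small cations and water. Occludin and junctional adhesion molecules lie in or beside the strands, and zonula occludens proteins tie them to actin on the cytoplasmic side. In the lung, Cldn18 is best known from alveolar epithelium, Cldn3, Cldn4 and Cldn7 from alveolar and airway epithelium, and Cldn5 from the endothelium of blood vessels, although alveolar epithelial cells can also make some Cldn5.

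The 250 bases before the transcription start are shown for Cldn2, the member that passed the test between genotypes, for Cldn5, against which the other members were compared, and for both start sites of Cldn18, the most abundant member. Sequences and positions are from RefSeq on GRCm38.p6, which held 13 start sites for the 10 members. They are written 5′ to 3′ on the strand of the gene, and capitals mark a TATA box core, TATAAA, or an NKX2-1 core, CAAGTG.
Cldn2, chrX:139800558-139800807, plus strand: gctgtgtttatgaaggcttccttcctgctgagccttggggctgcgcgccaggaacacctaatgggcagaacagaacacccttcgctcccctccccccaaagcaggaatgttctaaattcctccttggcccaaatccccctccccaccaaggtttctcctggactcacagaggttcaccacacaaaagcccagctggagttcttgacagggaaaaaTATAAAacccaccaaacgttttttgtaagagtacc
Cldn5, chr16:18776597-18776846, plus strand: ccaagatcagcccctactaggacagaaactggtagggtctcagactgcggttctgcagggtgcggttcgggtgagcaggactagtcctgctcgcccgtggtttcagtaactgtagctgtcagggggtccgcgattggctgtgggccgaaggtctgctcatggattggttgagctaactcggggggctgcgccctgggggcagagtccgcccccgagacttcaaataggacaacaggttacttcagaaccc
Cldn18 outer start site, chr9:99717268-99717517, minus strand: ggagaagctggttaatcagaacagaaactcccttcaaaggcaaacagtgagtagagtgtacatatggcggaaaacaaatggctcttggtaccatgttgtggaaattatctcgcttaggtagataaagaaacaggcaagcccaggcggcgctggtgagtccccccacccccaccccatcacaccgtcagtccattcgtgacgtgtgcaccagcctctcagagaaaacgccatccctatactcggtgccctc
Cldn18 inner start site, chr9:99710064-99710313, minus strand: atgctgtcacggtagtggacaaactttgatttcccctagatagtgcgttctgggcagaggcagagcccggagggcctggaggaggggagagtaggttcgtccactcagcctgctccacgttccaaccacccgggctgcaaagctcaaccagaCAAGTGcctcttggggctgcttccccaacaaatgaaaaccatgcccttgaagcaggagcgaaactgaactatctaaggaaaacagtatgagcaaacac
In windows from 250 bases before to 50 bases after each start, both strands were searched for 3 sets of letters. The letters TATAAA, which read TTTATA on the opposite strand, occurred in 1 of the 13 windows, that of Cldn2, with its first base at position -35 from the start, and in 13.6% of all 32851 promoter windows. The letters CAAGTG, or CACTTG on the opposite strand, occurred in 3 of the 13, those of Cldn1, Cldn7 and the inner Cldn18 start site, and in 13.6% of all windows. The letters CAGGTG, or CACCTG on the opposite strand, are the E-box form read by the SNAI and ZEB repressors and occurred in 6 of the 13 windows, which belong to Cldn3, Cldn4, Cldn7, F11r and Ocln, and in 20.2% of all windows. These matches describe letters only, and no binding was measured.

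Library totals ranged from 5806599 to 21290402 counts, and 3 counts corresponded to 0.141 to 0.517 CPM. CPM are counts scaled to a common library size, here with TMM factors. Setd2 mRNA itself was 140.1 ± 8.81 CPM (SD, n = 4) in K-Ctrl, against 135.7 ± 15.5 CPM in K-Setd2KO, with a log2 fold change of -0.05 (SE 0.115, edgeR adjusted p = 0.824), so the level of this mRNA does not separate the groups. By Xist and Y-linked transcripts, K-Ctrl replicate 2 and K-Setd2KO replicates 1, 2 and 4 were from females and the other 4 tumors from males, so genotype and sex were partly confounded, and the members' values within each sex are given. RNA of alveolar type 2 markers was abundant in every tumor: 9 markers summed to between 55760 and 74740 CPM in K-Ctrl and between 61260 and 90560 CPM in K-Setd2KO. Much of this was Sftpc, at 21510 to 32460 CPM in K-Ctrl and 21880 to 30420 CPM in K-Setd2KO. The sum does not show which cells made this RNA. The endothelial, leukocyte and fibroblast markers described below were present in all 8 tumors.

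Of the 10 members, all tested, Cldn2 was higher in K-Setd2KO and none was lower at an adjusted p of 0.05 (edgeR quasi-likelihood test, Benjamini-Hochberg over 14929 genes). That is 1 of 10, beside 12.7% of all genes tested in either direction, 4.97% higher and 7.74% lower, so the number of members called was close to the background. Cldn2 was also the 1 member whose groups did not overlap in CPM, a pattern that 20.3% of all genes showed. The members' median log2 fold change was 0.08, against 0.03 over all genes tested. At an unadjusted p of 0.05, 4 members passed, Cldn2 and Cldn7 toward higher and Cldn1 and Cldn5 toward lower values in K-Setd2KO, beside 29.9% of all genes at that unadjusted limit. DESeq2 called 3 members, Cldn1, Cldn2 and Cldn5, beside 16.9% of the 18876 genes it gave an adjusted p.

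**Figure D1:**
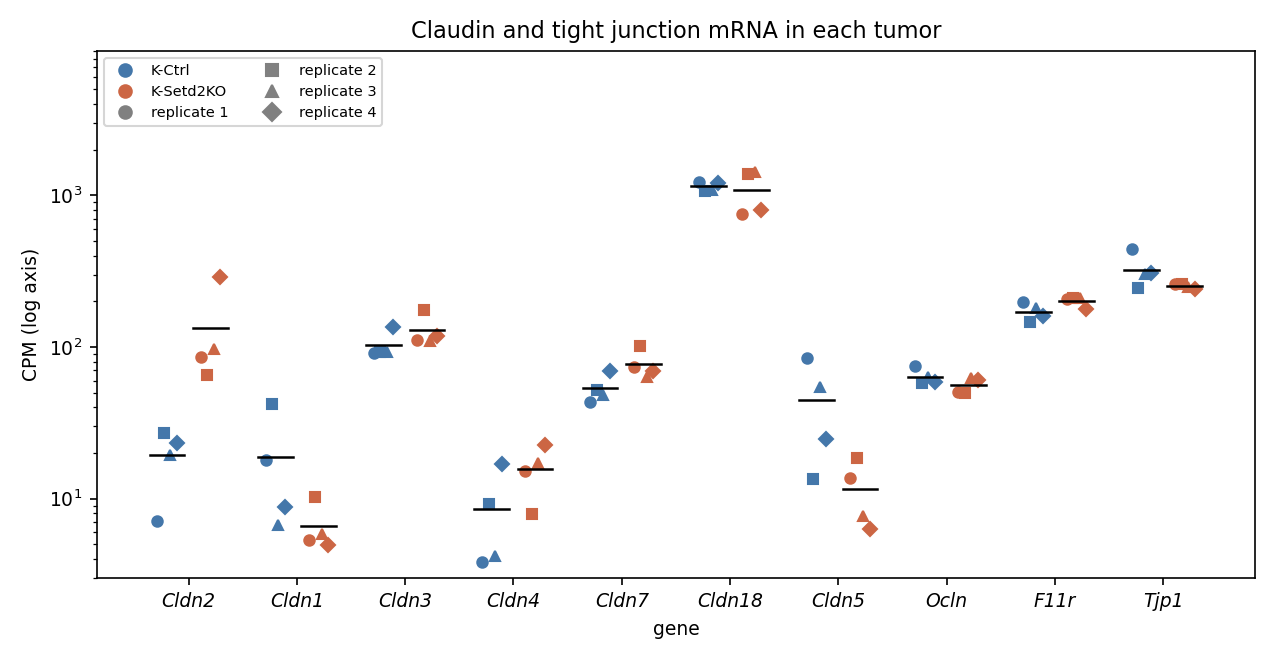
CPM of the 10 members (log axis) by genotype, with 4 tumors each; each point is a tumor, its shape gives the replicate, and horizontal bars are group means. Cldn2 is the gene whose groups separate, with 7.14 to 27.1 CPM in K-Ctrl, against 65.6 to 289.2 CPM in K-Setd2KO.

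Cldn2, the pore-forming claudin (chrX:139800828-139811386, plus strand, GRCm38), was measured at 7.14, 27.1, 19.3 and 23.4 CPM in K-Ctrl replicates 1 to 4. In K-Setd2KO replicates 1 to 4 it was at 86.5, 65.6, 96.5 and 289.2 CPM. Every K-Setd2KO tumor was above every K-Ctrl tumor, and replicate 4 was the highest, in the shallowest library. The means were 19.2 ± 8.68 and 135 ± 104 CPM (SD, n = 4 each), a 6.98-fold difference with a log2 fold change of 2.80 (SE 0.563, 95% interval 1.53 to 4.08, edgeR adjusted p = 0.0167), which placed Cldn2 30th by size among the 742 genes called higher. Without K-Setd2KO replicate 4 the log2 fold change was 2.10 (edgeR adjusted p = 0.0268). Without K-Ctrl replicate 3 it was 2.80, with an edgeR adjusted p of 0.0528, and with no filter on low counts the adjusted p was 0.064. Over the 16 alternatives the adjusted p ran from 9.49e-07 to 0.064, and 14 kept the call. Cldn2 lies on the X chromosome. Among female tumors the single K-Ctrl tumor had 27.1 CPM and the 3 K-Setd2KO tumors 65.6 to 289.2 CPM, a log2 difference of 2.11. Among males the 3 K-Ctrl tumors had 7.14 to 23.4 CPM and the single K-Setd2KO tumor 96.5 CPM, a log2 difference of 2.69. With sex as a term in the fit the log2 fold change was 2.49 (edgeR adjusted p = 0.0459).

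The other epithelial claudins did not pass in edgeR. Cldn18 (chr9:99689461-99717267, minus strand) is the alveolar claudin with separate lung and stomach forms that differ in their first exon, which counts per gene cannot tell apart. It was at 1229, 1066, 1092 and 1216 CPM in K-Ctrl, against 749.4, 1374, 1434 and 801.0 CPM in K-Setd2KO. The K-Setd2KO tumors thus lay on both sides of a narrow K-Ctrl range, at 1089 ± 364 against 1151 ± 83.8 CPM. The log2 fold change was -0.08 (SE 0.231, 95% interval -0.60 to 0.44, edgeR adjusted p = 0.851).

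Cldn3 and Cldn4 are barrier claudins that lie close to each other (chr5:134986214-134987472, plus strand, and chr5:134945119-134946934, minus strand). Cldn3 was at 90.7 to 136.3 CPM in K-Ctrl, against 109.3 to 175.6 CPM in K-Setd2KO, with a log2 fold change of 0.32 (SE 0.198, 95% interval -0.12 to 0.77, edgeR adjusted p = 0.305). Its exon overlaps that of Wbscr25 on the other strand, so its count is uncertain where strand was not used in counting. The same limit holds for some genes described below: Tjp3 (overlapped by Apba3), Ildr2 (5330438I03Rik), Zeb1 (Gm10125) and Zeb2 (Gm27761 and Zeb2os). Cldn4 was a low-level gene, at 3.82, 9.16, 4.201 and 16.9 CPM in K-Ctrl, against 15.3, 7.88, 17.2 and 22.6 CPM in K-Setd2KO. Its groups overlapped through K-Ctrl replicate 4 and K-Setd2KO replicate 2, and its interval ran from -0.25 to 2.03 on the log2 scale (log2 fold change 0.89 with SE 0.506, adjusted p = 0.274 in edgeR).

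Cldn7 (chr11:69964779-69967885, plus strand), found along the lateral membrane as well as in the junction, was at 43.6, 51.9, 48.5 and 69.7 CPM in K-Ctrl. In K-Setd2KO it was at 73.5, 101.7, 63.1 and 69.8 CPM. 3 of the 4 K-Ctrl tumors were below all K-Setd2KO tumors, and the groups met at K-Ctrl replicate 4. The log2 fold change was 0.53 (SE 0.193, 95% interval 0.09 to 0.96, edgeR adjusted p = 0.102). Without K-Ctrl replicate 4 it was 0.68 (edgeR adjusted p = 0.0447).

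Cldn1 (chr16:26356642-26371841, minus strand), a barrier claudin widely made by epithelia, was at 18.04, 41.9, 6.69 and 8.84 CPM in K-Ctrl, against 5.34, 10.3, 5.81 and 4.96 CPM in K-Setd2KO. K-Ctrl replicates 1 and 2 were above all K-Setd2KO tumors, and K-Ctrl replicates 3 and 4 lay within their range. The log2 fold change was -1.5 (SE 0.563, 95% interval -2.78 to -0.23, edgeR adjusted p = 0.111). Without K-Ctrl replicate 2, the tumor with the highest level, it was -0.76 (edgeR adjusted p = 0.290). The difference was -2.66 on the log2 scale among females, where that tumor is the only K-Ctrl sample, and -0.80 among males.

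The 3 non-claudin members did not pass in edgeR either. Ocln (chr13:100496507-100552718, minus strand), which encodes the strand protein occludin, ranged from 57.9 to 75.0 CPM in K-Ctrl and from 50.02 to 62.6 CPM in K-Setd2KO (log2 fold change -0.19, 95% interval -0.49 to 0.11, edgeR adjusted p = 0.373). F11r (chr1:171437535-171464603, plus strand), the adhesion molecule JAM-A, ranged from 145.6 to 198.8 CPM and from 178.0 to 210.7 CPM (log2 fold change 0.23, 95% interval -0.05 to 0.52, edgeR adjusted p = 0.253). Tjp1 (chr7:65296165-65527781, minus strand), the ZO-1 scaffold, had 442.5 CPM in K-Ctrl replicate 1 and 244.2 to 305.8 CPM in the other K-Ctrl tumors, against 242.5 to 260.7 CPM in K-Setd2KO. Its log2 fold change was -0.36 (SE 0.174, 95% interval -0.75 to 0.03, edgeR adjusted p = 0.202). Without K-Ctrl replicate 1 the log2 fold change of Tjp1 was -0.18 (edgeR adjusted p = 0.4575). For each of these genes the interval excludes a doubling or a halving in K-Setd2KO.

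Within each sex, where 1 genotype has a single tumor, the signs of 2 members differed. The log2 difference of Cldn18 was -0.18 among females and 0.28 among males, and that of Tjp1 was 0.06 and -0.48. Those of Cldn4 (0.60 and 1.38), Cldn7 (0.63 and 0.26), Cldn3 (0.52 and 0.06) and F11r (0.44 and 0.23) were positive in both sexes, and that of Ocln was -0.11 and -0.06. None of these was tested.

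**Figure D2:**
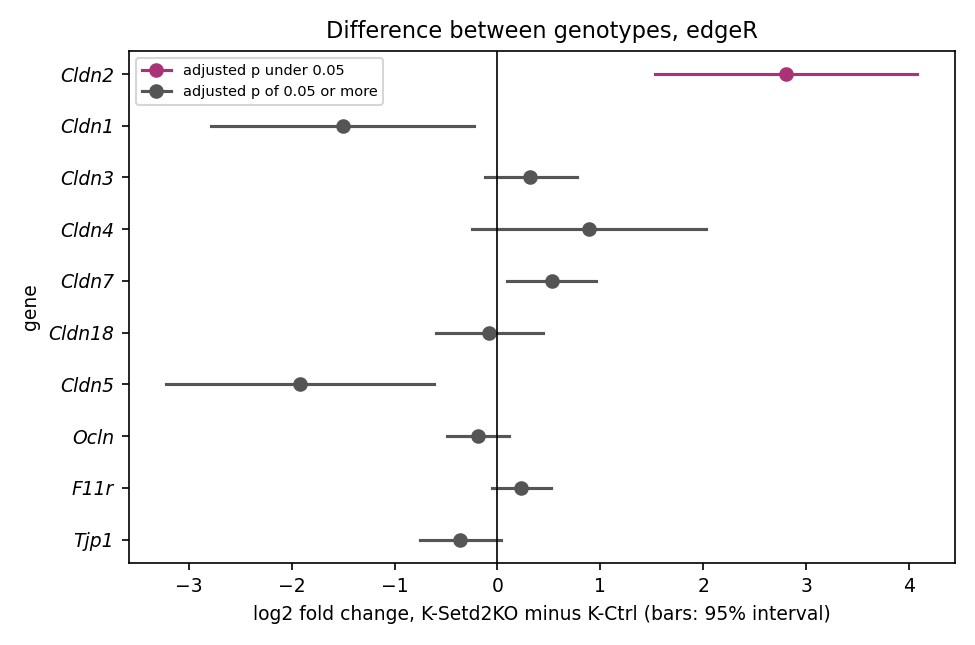
Log2 fold change of each member, K-Setd2KO minus K-Ctrl, from edgeR with 4 tumors per group; points are estimates and bars 95% intervals. The interval of Cldn2 runs from 1.53 to 4.08 and that of Cldn5 from -3.22 to -0.62, while those of Cldn18, Ocln, F11r, Tjp1, Cldn3 and Cldn4 include 0.

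Cldn5 (chr16:18776847-18778260, plus strand), the main claudin of blood vessel endothelium, was at 85.1, 13.5, 54.1 and 24.8 CPM in K-Ctrl. In K-Setd2KO it was at 13.8, 18.7, 7.66 and 6.33 CPM. K-Ctrl replicates 1, 3 and 4 were above all K-Setd2KO tumors, and K-Ctrl replicate 2 lay among them. The means were 44.4 ± 32.1 and 11.6 ± 5.71 CPM, with a log2 fold change of -1.92 (SE 0.575, 95% interval -3.22 to -0.62), but the adjusted p of 0.0592 in edgeR missed the threshold. DESeq2 called it (log2 fold change -1.94, adjusted p = 0.00305), as did edgeR without K-Ctrl replicate 2 (-2.22, adjusted p = 0.0324). With sex in the fit the log2 fold change was -1.42 (edgeR adjusted p = 0.335). The only female K-Ctrl tumor is the one with the lowest level, and the difference was -0.19 on the log2 scale among females and -2.64 among males, with a single tumor on 1 side of each.

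Endothelial markers were read beside Cldn5. All 14 listed had negative log2 fold changes, with a median of -1.27, and 3 of the 14 (Cdh5, Tek and Ptprb) passed in edgeR, beside 7.74% of all genes called lower. At an unadjusted p under 0.05 in edgeR 10 passed, beside 29.9% of all genes, and 8 passed in DESeq2, beside 16.9%. With sex as a term 0 of the 14 passed in edgeR (2 at an unadjusted p under 0.05), beside 8.29% of all genes, and the adjusted p of Cdh5 was 0.182. Their summed level was 3519, 871.1, 1733 and 1056 CPM in K-Ctrl, against 859.8, 721.8, 556.2 and 455.8 CPM in K-Setd2KO, and K-Ctrl replicate 2 was again close to the K-Setd2KO tumors. In whole tumors, fewer cells of a type and less RNA per cell cannot be told apart. Relative to Cdh5, the gene for VE-cadherin, Cldn5 stood at -2.66 ± 0.314 (SD, n = 4) in K-Ctrl, against -2.65 ± 0.453 in K-Setd2KO on the log2 scale, a difference of 0.02 (two-sided exact permutation p = 0.943). Relative to Pecam1, the endothelial adhesion gene, the difference was -0.39 (two-sided exact permutation p = 0.286). These differences depend on the reference: Cdh5 and Pecam1 had log2 fold changes of -1.93 and -1.39, beside the median of -1.27 for the 14. Ratios to the other endothelial markers were not computed. In both ratios the groups overlapped, whereas 49.9% of all genes did not overlap relative to Cdh5 and 27% did not relative to Pecam1. Among females the differences were 0.49 relative to Cdh5 and 0.28 relative to Pecam1, and among males -0.27 and -0.64. Within tumors, Arhgef15 and Adcy4 had the patterns most like that of Cldn5, with correlations of 0.990 and 0.987 over the 8 tumors after the group means were removed. These correlations share libraries and depth and are descriptions only.

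**Figure D3:**
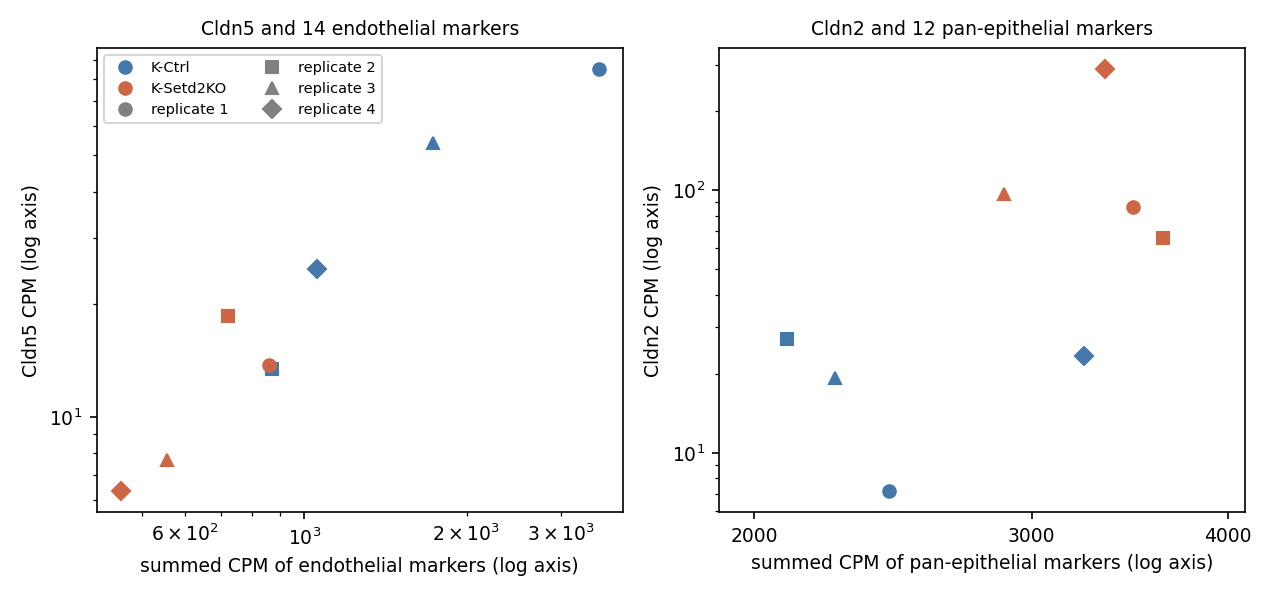
Left, Cldn5 CPM against the summed CPM of 14 endothelial markers; right, Cldn2 CPM against the summed CPM of 12 pan-epithelial markers; both axes are logarithmic, and each point is 1 of the 8 tumors. On the left the tumors run from K-Setd2KO replicate 4 (455.8 and 6.33 CPM) to K-Ctrl replicate 1 (3519 and 85.1 CPM), and on the right all K-Setd2KO tumors lie at 65.6 CPM of Cldn2 or more.

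The epithelial members were then set against Cldn5 within each tumor, as a log2 ratio of CPM in which the scaling between libraries cancels apart from the prior count of 2. Cldn5 itself had a log2 fold change of -1.92, against a median of 0.03 over all genes tested. A gene with no difference would therefore have a higher mean ratio too. All 9 mean ratios were higher in K-Setd2KO, and the share of all genes with a higher mean ratio was not computed. For 4 of the 9, those of Cldn2, Cldn3, Cldn7 and F11r, every K-Setd2KO tumor was above every K-Ctrl tumor. Over all genes 17.6% showed this for their ratio to Cldn5. The 9 ratios share 1 denominator and are not independent. The ratio of Cldn2 to Cldn5 was -3.55, 1.01, -1.48 and -0.09 in K-Ctrl, against 2.64, 1.80, 3.63 and 5.48 in K-Setd2KO. Its difference of 4.42 compares with 2.25 for Cldn7, 2.04 for Cldn3 and 1.96 for F11r, each with an unadjusted two-sided exact permutation p of 0.0286, the smallest that 4 against 4 tumors can give. The differences were 2.76 for Cldn4 and 1.58 for Cldn18 (two-sided exact permutation p = 0.0857 for both), 1.40 for Tjp1 (exact p = 0.0571), 1.53 for Ocln (exact p = 0.114) and 0.53 for Cldn1 (exact p = 0.629). These p-values were not adjusted.

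These ratios depended on K-Ctrl replicate 2, whose Cldn5 level was low. Without it, 8 of the 9 ratios, all but that of Cldn4, were higher in every K-Setd2KO tumor, as were those of 67.8% of all genes. Among females, where this tumor is the only K-Ctrl sample, the differences were 2.30 for Cldn2, 0.82 for Cldn7, 0.70 for Cldn3, 0.63 for F11r and 0.79 for Cldn4, and the sign was negative for Cldn1, at -2.47. For Cldn18, Ocln and Tjp1 the differences among females were close to 0, at 0.00, 0.08 and 0.24. Among males, where K-Setd2KO has a single tumor, Cldn5 itself differed by -2.64 on the log2 scale. A gene with no difference among males would therefore have a positive ratio difference too. All 9 were positive there: 5.34 for Cldn2, 2.90 for Cldn7, 2.70 for Cldn3, 2.87 for F11r, 4.02 for Cldn4, 1.84 for Cldn1, 2.93 for Cldn18, 2.58 for Ocln and 2.16 for Tjp1.

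**Figure D4:**
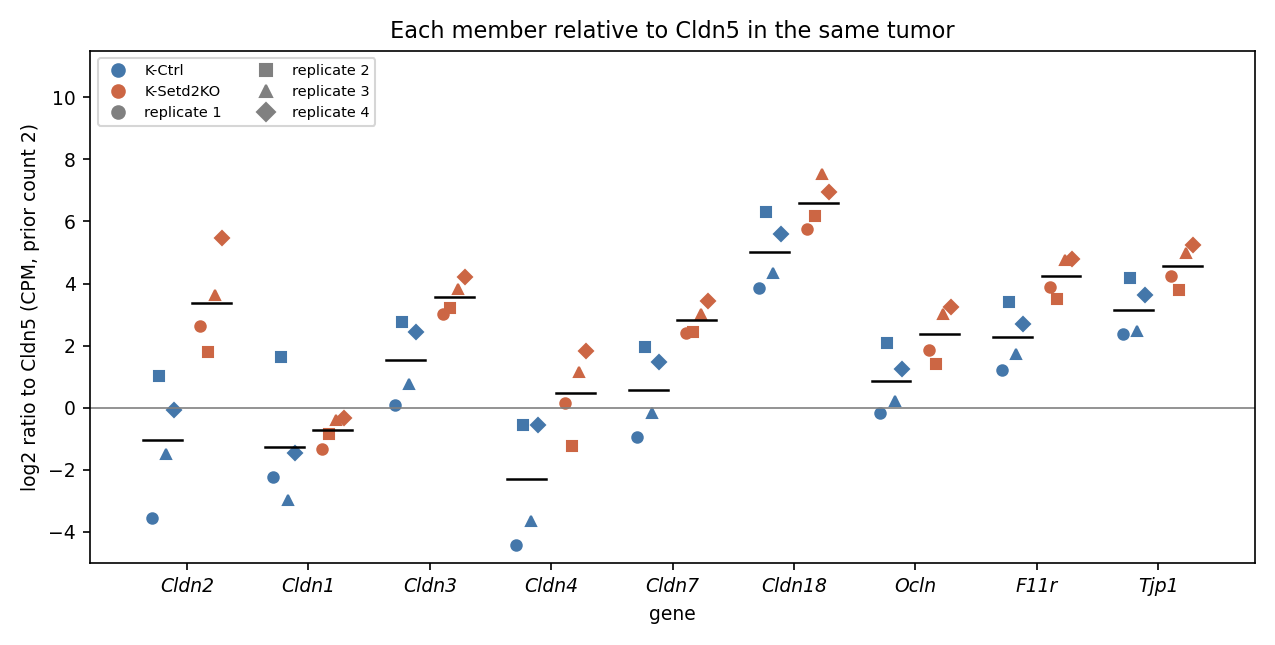
Log2 ratio of each of the 9 epithelial members to Cldn5 within each tumor (CPM, prior count 2); points are tumors, shapes replicates, bars group means and the grey line equal CPM. For Cldn2 the K-Ctrl tumors lie between -3.55 and 1.01 and the K-Setd2KO tumors between 1.80 and 5.48.

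The same 9 members were set against Epcam, an epithelial adhesion gene. Epcam itself was higher in K-Setd2KO, at 453.3 ± 73.9 against 242.5 ± 56.6 CPM (log2 fold change 0.90 with SE 0.187, adjusted p = 0.0177 in edgeR). It passed in 14 of 16 alternatives, and not with sex as a term (edgeR adjusted p = 0.0544) or without K-Ctrl replicate 3 (edgeR adjusted p = 0.0595). The log2 ratio of Cldn2 to Epcam was -3.78 ± 0.705 in K-Ctrl, against -2.0 ± 0.724 in K-Setd2KO, a difference of 1.78 with no overlap (two-sided exact permutation p = 0.0286). The ratios of Cldn1, Tjp1, Ocln and Cldn18 to Epcam were lower, by differences of -2.10, -1.24, -1.10 and -1.05, again without overlap (exact p = 0.0286 each). Those of F11r, Cldn3 and Cldn7 differed by -0.68, -0.60 and -0.39 (exact p = 0.0857, 0.114 and 0.143), and that of Cldn4 by 0.12 (exact p = 0.771). In all, 5 of 9 ratios did not overlap, beside 49.4% of all genes set against Epcam, so that count is near the background. Within females and males the difference for Cldn2 was 1.14 and 1.89, for Cldn1 -3.63 and -1.61, for Tjp1 -0.91 and -1.28, for Ocln -1.08 and -0.87 and for Cldn18 -1.15 and -0.52. The ratio of Cldn4 differed in sign, at -0.37 and 0.58, and those of F11r, Cldn3 and Cldn7 were negative in both sexes. The other pan-epithelial marker fixed for naming, Cdh1, had a log2 fold change of -0.01 (edgeR adjusted p = 0.970), a sign that other settings turned, and was not used as a reference.

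Levels of different genes were compared after dividing counts by summed exon length and scaling every tumor to the same total (TPM). In K-Ctrl, Cldn18 led at 736.9 ± 51.7 TPM, above Cldn3 at 233.2 ± 46.3 TPM with no overlap. F11r (183.8 TPM), Tjp1 (118.5), Cldn5 (90.0) and Cldn7 (78.1) followed, each overlapping its neighbour in this order, then Ocln (43.2), and last Cldn1, Cldn2 and Cldn4 at 16.6, 16.5 and 13.3 TPM with overlapping ranges. In K-Setd2KO, Cldn18 (688.9 ± 225 TPM) and Cldn3 (286.8 ± 47.7 TPM) again led. Cldn18 overlapped no other member, whereas Cldn3, at 247.1 to 353.6 TPM, overlapped Cldn2 through replicate 4. Cldn2 stood 4th at 118.3 ± 98.5 TPM, overlapping both F11r above it (214.0 TPM) and Cldn7 below it (110.7 TPM). That mean rested on replicate 4 (264.4 TPM), without which Cldn2 averaged 69.6 TPM and stood 6th, below Cldn7 and Tjp1. Tjp1 (91.4 TPM) came next, then Ocln (37.8), Cldn4 (25.1) and Cldn5 (22.6) with overlapping neighbours, and Cldn1 (5.64) was last and separate.

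As a share of the length-scaled mRNA of 22 claudins, Cldn18 made up 60.1 ± 1.27% in K-Ctrl, against 51.8 ± 9.65% in K-Setd2KO (SD, n = 4). The share of Cldn2 was 0.474%, 2.09%, 1.43% and 1.503% in K-Ctrl, against 7.32%, 3.55%, 5.70% and 19.9% in K-Setd2KO. The share of Cldn5 was 7.22 ± 5.05% and 1.80 ± 0.888%. Cldn3 held 19.0 ± 3.04% and 22.2 ± 3.82%, and Cldn7 6.38 ± 1.15% and 8.64 ± 1.82%. Thus the 2 most abundant claudins were the same in both genotypes, and the order below them varied between tumors. Cldn7 had a larger share than Cldn2 in 3 of 4 K-Setd2KO tumors and a larger share than Cldn5 in 2 of 4 K-Ctrl tumors. Without K-Setd2KO replicate 4 the mean shares of Cldn2 and Cldn7 were 5.52% and 8.80%. These shares are not independent of one another and were not tested.

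**Figure D5:**
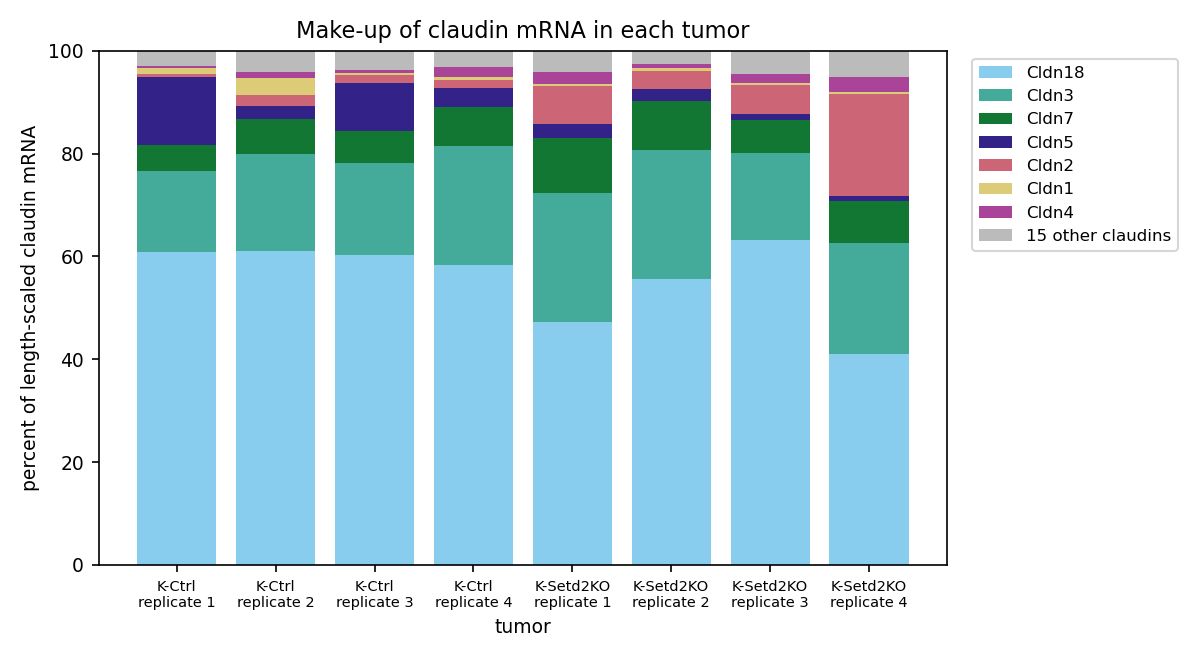
Percent of the length-scaled mRNA of 22 claudins held by each claudin member and by the 15 other claudins together, in each tumor; each bar adds up to all claudin mRNA. Cldn18 holds 58.3% to 61.1% in K-Ctrl, against 41.0% to 63.2% in K-Setd2KO, and the Cldn2 band reaches 19.9% in K-Setd2KO replicate 4.

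Of 48 other tight junction genes, 37 were tested, of which 1 was higher and 4 lower in K-Setd2KO and 32 did not pass. The 5 called are 13.5% of those tested, close to the 12.7% of all genes. The median log2 fold change was 0.10. The 11 that were not tested were all claudins of low or no count, and 4 of these (Cldn13, Cldn16, Cldn17 and Cldn22) had 0 counts in every tumor. Among scaffolds and polarity proteins, 1 of 18 was higher and 2 were lower, 16.7% in all and also near that background. Tjp3, the ZO-3 scaffold, rose from 29.1 ± 6.32 to 46.0 ± 6.65 CPM (log2 fold change 0.66 with SE 0.185, adjusted p = 0.0468 in edgeR). Mpdz, the multi-PDZ scaffold MUPP1, fell from 21.9 ± 9.96 to 5.77 ± 1.58 CPM (log2 fold change -1.93 with SE 0.341, adjusted p = 0.0113 in edgeR) and passed under all 16 alternatives. Mpp5, the polarity protein PALS1, fell from 145.7 ± 36.1 to 88.7 ± 9.32 CPM (log2 fold change -0.72 with SE 0.176, adjusted p = 0.0308 in edgeR). These 3 genes had no overlap between groups, nor did Magi1 of the same list, which did not pass (edgeR adjusted p = 0.0655). Over all genes 20.3% had no overlap. Tjp3 passed in 6 and Mpp5 in 7 of the 16 alternatives, and neither passed with sex as a term (edgeR adjusted p = 0.0735 and 0.0945). Cgnl1, the paracingulin gene and the scaffold with the highest level per length, was at 337.3 and 404.7 CPM (edgeR adjusted p = 0.255).

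Among 5 tricellular and MARVEL proteins, Ildr2, an angulin of tricellular contacts, fell from 20.2 ± 4.13 to 9.14 ± 2.72 CPM without overlap (log2 fold change -1.13 with SE 0.257, adjusted p = 0.0240 in edgeR, passing in 13 of 16 alternatives), and Lsr, another angulin, had a log2 fold change of 0.16 (edgeR adjusted p = 0.611). Of the 4 other claudins tested, Cldn15, a cation-channel claudin, fell from 2.91 ± 1.497 to 0.675 ± 0.130 CPM (log2 fold change -2.08 with SE 0.533, adjusted p = 0.0353 in edgeR), with overlapping groups and few counts. It passed in 6 of 14 alternatives and not with sex as a term (edgeR adjusted p = 0.0633). Cldn12, the most abundant of these, was at 38.6 and 46.2 CPM (edgeR adjusted p = 0.299). Cldn8, a barrier claudin named after its values were seen, was at 2.59 to 5.09 CPM in K-Ctrl, against 5.35 to 26.0 CPM in K-Setd2KO without overlap (log2 fold change 1.70, edgeR adjusted p = 0.0647). Of 5 immunoglobulin-like adhesion genes and 5 plaque regulators, 0 passed in edgeR or DESeq2, and 2 and 1 respectively had an unadjusted edgeR p under 0.05, beside 29.9% of all genes. Their most abundant genes, Esam and Ybx3, had log2 fold changes of -0.01 and 0.06, signs that other settings turned.

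Of 9 transcription factors known to act on claudin genes, 4 were lower and none was higher, beside 7.74% of all genes called lower. The median log2 fold change of the 9 was -0.49. Zeb2, a repressor of epithelial junction genes, fell from 126.5 ± 29.4 to 35.7 ± 9.01 CPM (log2 fold change -1.82 with SE 0.223, adjusted p = 0.0056 in edgeR). Its relative Zeb1 fell from 52.2 ± 31.9 to 14.99 ± 4.12 CPM (log2 fold change -1.80 with SE 0.404, adjusted p = 0.0238 in edgeR), and Snai2, another such repressor, from 5.78 ± 2.36 to 1.24 ± 0.457 CPM (log2 fold change -2.19 with SE 0.416, adjusted p = 0.0135 in edgeR). Erg, an endothelial activator of Cldn5, fell from 45.5 ± 27.4 to 17.3 ± 3.26 CPM (log2 fold change -1.39 with SE 0.387, adjusted p = 0.0467 in edgeR). None of the 4 overlapped between groups, as was the case for 20.3% of all genes. Zeb2 and Snai2 passed in all 16 alternatives, Zeb1 in 11 and Erg in 5. With sex as a term Zeb1 and Erg did not pass (edgeR adjusted p = 0.0931 and 0.166). Nkx2-1, the lung epithelial factor, was at 509.9 and 648.7 CPM (edgeR adjusted p = 0.405).

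Beside 7.74% of all genes called lower, 6 of 8 leukocyte markers were lower and none higher (median log2 fold change -1.61, summed level 1140 to 2056 CPM in K-Ctrl, against 585.5 to 802.9 CPM in K-Setd2KO). Of 8 fibroblast markers 2 were lower (median -1.17, 567.5 to 1156 and 144.8 to 611.2 CPM), and of 8 alveolar type 1 markers 2 were lower (median -1.32, 2465 to 5117 and 1381 to 2537 CPM). Of 6 club and ciliated markers 0 passed in edgeR, where 2 had an unadjusted p under 0.05 (29.9% of all genes), and 2 passed in DESeq2 (16.9% of all genes, median -1.21, 564.1 to 2869 and 223.3 to 986.2 CPM). Of 12 pan-epithelial markers 6 were higher, beside 4.97% of all genes, and none lower (median 0.62, 2097 to 3238 and 2883 to 3636 CPM), and of 9 alveolar type 2 markers 1 was higher and 1 lower (median 0.00). With sex as a term in edgeR, 7 leukocyte, 1 fibroblast, 1 alveolar type 1, 3 pan-epithelial and 1 alveolar type 2 marker passed, and 0 club and ciliated markers (2 at an unadjusted p under 0.05), beside 8.29% of all genes. The part of these values in the results for the transcription factors and for the scaffolds was not tested. All lists of markers, transcription factors and tight junction genes were written with earlier results of these data known. Their counts beside the shares over all genes are descriptions only.

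Other genes followed Cldn2 and Cldn18 within the groups. For Cldn2 these were Prmt9 and Dhx33, with correlations of 0.976 and 0.971 over 8 tumors after the group means were removed, and for Cldn18 they were Lmbr1l and Clic3, at 0.996 and 0.987. These are the highest of 14929 correlations and serve as a description.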

How the data were processed

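RNA from 8 whole tumors was sequenced after stranded poly(A) library preparation. Raw gene counts, deposited by the authors as 1 table, carried no normalization. The submitters' processing notes name STAR 2.5.2b, featureCounts 1.5.0-p1 and GRCm38.p4. The strand setting and annotation release are not given in the sources used here. Of 48709 identifiers 99.26% matched GENCODE M21, and 20284 genes had 0 counts in all tumors. An allele that all 8 tumors share is not reported here. No pair of libraries within a group agreed within sampling noise, and pairs across the groups were not compared.

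Genotypes were compared in R 4.3.3 with edgeR 4.0.16 (filterByExpr, TMM, robust quasi-likelihood fit, genotype only, Benjamini-Hochberg over 14929 genes, threshold 0.05). The study used DESeq2, run here as an alternative (1.42.0), as was limma voom (3.58.1). SE is the absolute log2 fold change over the square root of F, and 95% intervals use the fit's t quantile. CPM is divided by TMM library size, log2 CPM uses a prior count of 2, and 3-count limits cover counting error only. Ratios within tumors were compared by two-sided exact permutation over 70 assignments, with 20 ratios computed and p-values unadjusted. The procedure was tested on simulated data.

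The members and lists were chosen with earlier results of these data known, and the motifs, the within-sex values and the levels and shares without K-Setd2KO replicate 4 after seeing the data. Genes named beyond the members were, per tight junction or transcription factor list, those called (at most 5) and the most abundant per length, the first 2 genes of a marker list, and the 2 genes most correlated with Cldn2, Cldn5 and Cldn18. Cldn8, Magi1, Tek and Ptprb fall outside this rule and were named after their values were seen.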

Additional observations from a re-analysis of the deposited data

Results flagged for a closer look

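In 6 of 60 groups of 4 tumors checked, 1 tumor lay far from the other 3 by Dixon's test at the 95% level, where chance alone gives about 3.0. In K-Setd2KO, Cldn2 was at 289.2 CPM in replicate 4, against 65.6 to 96.5 CPM in the others. Cldn1 was at 10.25 CPM in K-Setd2KO replicate 2, and in that tumor Cldn3 was also far above the rest, at 175.6 CPM. The log2 ratio of Cldn5 to Cdh5 was -1.97 in the same tumor. In K-Ctrl, Cldn3 was at 136.3 CPM in replicate 4. F11r was at 178.0 CPM in K-Setd2KO replicate 4, below the other K-Setd2KO tumors.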

How the results depend on the processing

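The number of genes called was 1897 with edgeR, 3193 with DESeq2, 1237 with sex as a term and 763 to 2058 when 1 tumor was left out. Of the members, DESeq2 called 3 (Cldn1, Cldn2 and Cldn5), the fit with no filter on low counts called 0, at an unadjusted p of 0.05 in the filtered fit 4 passed (29.9% of all genes did), and leaving out 1 tumor gave 0 to 2. Without K-Ctrl replicate 3 no member was called. Other tight junction genes called numbered 5, 9 with DESeq2, 3 with a replicate block and 1 to 5 when 1 tumor was left out, the lowest without K-Ctrl replicate 1 or 2. Ratios to Cldn5 that separated the groups numbered 4, and 4 to 8 with 1 tumor left out. Of the 10 members, 4 kept their rank in K-Ctrl on CPM in place of the per-length level, and 6 to 10 did with 1 K-Ctrl tumor left out. In K-Setd2KO 7 kept their rank on CPM, and 5 to 10 with 1 K-Setd2KO tumor left out. Replicate numbers did not pair the tumors: the correlations of same-numbered deviations were -0.07, -0.03, 0.19 and -0.02, and 2 of 8 tumors correlated best with their own number. With the replicate block 1341 genes and 1 member were called, and the smallest p of the paired sign test over 4 pairs is 0.125. Small log2 fold changes turned sign: Cldn18 to 0.08 with sex as a term and -0.24 to 0.07 with 1 tumor left out, Esam to 0.00 with limma voom or sex and -0.11 to 0.12 with 1 tumor left out, Ybx3 from -0.06 to 0.25 and Cdh1 from -0.11 to 0.08 with 1 left out, Ager to 0.14 with sex, and Sftpc to 0.00 with upper-quartile factors or no filter, 0.01 with the block, 0.07 with sex and -0.11 to 0.15 with 1 tumor left out. The causes were not tested. The shallowest library is K-Setd2KO replicate 4, where 3 counts correspond to 0.517 CPM.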
